A study of Locusta migratoria with 12 samples.

Results

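Fat body from adult female migratory locusts (Locusta migratoria) collected 6 days after eclosion, the moult that makes the adult, was set against fat body collected on day 0, the day of that moult. The libraries were picked by the age in their labels, which gave 3 of small RNA at day 6 and 3 at day 0, out of 12 in the series. The other 6 came from day 2 and day 4 and are used here for the time course and for the estimate of spread. Every group was female, total RNA was taken from fat body, and no genotype, strain or treatment is labelled. The labels do not say whether the 3 libraries of an age came from separate females, so a p-value here measures the spread between these libraries, part of which may be technical.

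The fat body is the insect organ for nutrient storage and intermediary metabolism, and in adult females it makes the yolk protein vitellogenin for the growing eggs. In locusts juvenile hormone, scarce at the moult and produced in the days after it, drives that change, and the transcription factor Kr-h1 carries part of its signal. MicroRNAs (miRNAs) are short RNAs cut from hairpin precursors that lower the output of messenger RNAs matching their seed, and either arm of the hairpin (5p or 3p) can give a mature miRNA.

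The deposited table held identical or near-identical counts under the names of many species, taken here as repeated counts of the same reads, so such rows were joined first, which left 103 groups, 84 of them with an arthropod name. A group is called a miRNA below, although some are lesser forms of a more abundant miRNA. The joined counts came to 1719180, 615433 and 1443780 in day 6 replicates 1 to 3, and to 388070, 2190531 and 1875684 in day 0 replicates 1 to 3. Levels are given as normalised CPM, counts put on the same scale for every library, which correct for sequencing depth and, by edgeR's TMM factors, for a few miRNAs taking a large share of a library. Of the 103 groups, 91 passed the filter on low counts and were tested, 72 of them with an arthropod name.

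Day 0 replicate 1 stood apart from the rest of the series. Names found only in Lepidoptera, the moths and butterflies (11 miRNAs), took 1918 of its counts, against 3, 2 and 2 counts in the day 6 libraries and 5 and 0 in day 0 replicates 2 and 3. In addition, 10 joined groups had over 80% of their counts in this library, 9 of them under lepidopteran names alone, and together they made up 1.14% of its counts. None of these 10 groups passed the filter, so none entered a test. Among the 91 miRNAs tested, day 0 replicate 1 was the highest of all 12 libraries for 24 and the lowest for 31. No other library was at an extreme for as many, with day 6 replicate 3 next at 12 and 15. Its part in the results was not tested beyond leaving it out, so the 25 called miRNAs described in most detail are given with and without it.

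At day 6, 13 miRNAs were higher than at day 0 (14.3% of those tested) and 23 were lower (25.3%), so that 39.6% were called. Calls are those with a p under 0.05 in the quasi-likelihood test of edgeR after Benjamini-Hochberg adjustment. Without day 0 replicate 1, 17 were higher (18.5% of 92 tested) and 23 lower (25%), 43.5% in all, and 13 of the higher and 19 of the lower calls were made in both fits. Among the 13 higher miRNAs, 7 had an arthropod name, against 22 of the 23 lower ones. The number of calls changed with other single libraries left out as well. In such fits 7 were higher without day 0 replicate 3, and 14 were lower without day 6 replicate 2 and also without day 6 replicate 3. Such fits also have fewer libraries to estimate the spread, and this was not told apart from the library dropped. Scaling by total counts gave 7 higher and 25 lower, so that 21.9% of the calls were higher against 36.1% with TMM, and it moved the median log2 change of all tested miRNAs to -0.31 in place of 0.06. None of the 25 miRNAs described below changed sign with that scaling. With the spread estimated from the 6 libraries compared alone, 2 were higher and 10 lower.

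These 25 are all called miRNAs with an arthropod name and a mean of at least 10 CPM, counted by their most abundant form, 6 of them higher and 19 lower at day 6. The libraries of the 2 ages did not overlap for 5 of the 6 and for 16 of the 19, where the share of all tested miRNAs without overlap was 18.7% in the higher and 22% in the lower direction, 40.7% in all. With day 0 replicate 1 left out these shares were 28.6% and 30.8%. Without day 0 replicate 1, the 6 higher and 17 of the 19 lower ones were called again. Day 0 replicate 1 was the lowest of the 12 libraries for 5 of the 6 higher miRNAs and the highest of the 12 for 10 of the 19 lower ones. In the 6 fits that each left out one of the libraries compared, 17 of the 25 were called every time. In the fit of the 6 libraries alone 10 of the 25 were called, namely miR-31a-5p, miR-92a-3p, miR-263a-5p, miR-995-3p, miR-263b-5p, miR-278-3p, miR-125-5p, miR-100-5p and both arms of miR-10, and the calls of the other 15 ended.

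**Figure D1:**
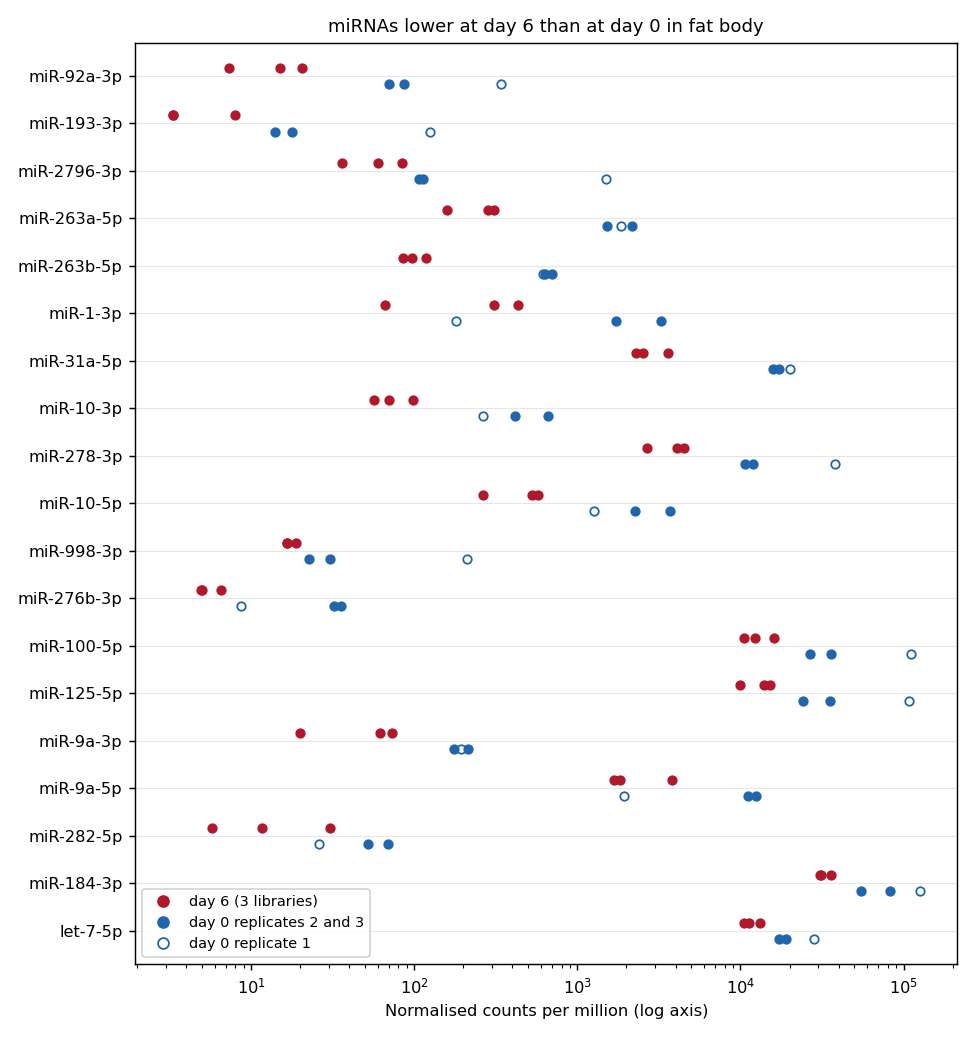
Normalised CPM (log axis) of the 19 lower miRNAs in each library, with the 3 day 6 libraries in red above the 3 day 0 libraries in blue, and day 0 replicate 1 as an open circle. miR-31a-5p and both miR-263 miRNAs have all 3 day 0 libraries close together and far right of day 6, whereas for miR-92a-3p, miR-193-3p, miR-2796-3p and miR-998-3p the open circle lies well apart from the other day 0 libraries.

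miR-31a-5p had the smallest p of all miRNAs tested. It stood at 3597, 2276 and 2521 CPM at day 6, against 20193, 15933 and 17146 CPM at day 0. All 3 day 6 libraries were far below all 3 day 0 libraries, and the day 0 libraries were close to each other. On the log2 scale it fell by 2.67 (SE 0.27; adjusted p = 4.11e-05), and the log2 change was -2.54 (SE 0.21) without day 0 replicate 1.

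The miR-263 family followed. In flies its members protect sensory organs from cell death, and in locusts miR-263 is reported, with miR-71, to act on genes of chitin turnover at the moult. miR-263a-5p had 282, 159.9 and 308 CPM at day 6, against 1859.7, 1514 and 2158 CPM at day 0, and fell by 2.88 (log2; SE 0.37, adjusted p = 0.000224). miR-263b-5p had 96.6, 85.0 and 118 CPM at day 6, against 617, 637 and 700.1 CPM at day 0, and fell by 2.70 (SE 0.38, adjusted p = 0.000363). Neither overlapped between the ages, and day 0 replicate 1 lay among the other day 0 libraries or just under them, so that without it the log2 changes of miR-263a-5p and miR-263b-5p were -2.85 and -2.72. A lesser form of miR-263b-5p, named after a mite, fell by 1.57 (SE 0.46; -1.81 without day 0 replicate 1). Among the 7 measured miRNAs reported in chitin turnover or moulting of locusts, 4 fell and 0 rose, beside 25.3% lower and 14.3% higher among all tested, with a median log2 change of -1.42 (all tested miRNAs, 0.06). Those that fell were these 3, of which 1 is a lesser form of another, and miR-184-3p, whose call depends on the row counted. Without day 0 replicate 1 the count was the same and the median -1.04 (all tested, 0.23). miR-71-5p (-0.47, adjusted p = 0.201), miR-71-3p (0.42) and miR-184b (0.52) were not called in either fit.

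miR-10 is encoded within the Hox gene cluster, and both arms of its hairpin fell. miR-10-5p had 576, 526 and 265 CPM at day 6, against 1273, 2271 and 3689 CPM at day 0, and fell by 2.40 (log2; SE 0.44, adjusted p = 0.00205). miR-10-3p had 98.1, 70.0 and 56.9 CPM at day 6, against 264, 418 and 657 CPM at day 0, and fell by 2.57 (SE 0.43, adjusted p = 0.00109). For both arms every day 6 library was below every day 0 library, and day 0 replicate 1 was the lowest of the day 0 libraries, so leaving it out gave -2.69 for miR-10-5p and -2.81 for miR-10-3p. iab-4-5p, the other Hox cluster miRNA measured, had 14.5, 113 and 1.65 CPM at day 6, against 21.6, 31.4 and 19.9 CPM at day 0, and was not called (log2 change 0.76, adjusted p = 0.561; 0.68 without day 0 replicate 1).

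Both arms of miR-9a, which keeps the number of sensory organ precursors in check in flies, were also lower. miR-9a-3p had 72.7, 19.99 and 61.8 CPM at day 6, against 193, 176 and 212 CPM at day 0, without overlap, and fell by 1.89 (SE 0.47, adjusted p = 0.00953; -1.86 without day 0 replicate 1). With the 6 libraries alone miR-9a-3p was not called (-1.89, adjusted p = 0.0919). miR-9a-5p had 3814, 1821 and 1680 CPM at day 6, against 1927, 11205 and 12426 CPM at day 0. Here day 0 replicate 1 lay within the day 6 range while the other day 0 libraries were far above it. It fell by 1.80 (SE 0.56, adjusted p = 0.0260), with a change of -2.25 without day 0 replicate 1 (adjusted p = 0.000373). In 4 fits that keep day 0 replicate 1, miR-9a-5p was no longer called: -1.56 and -1.43 when day 0 replicate 2 or 3 was dropped, and -1.60 each time when day 6 replicate 2 or 3 was dropped.

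The let-7 complex holds let-7, miR-100 and miR-125, which are cut from a shared transcript in flies and act there in the passage from juvenile to adult. Its 4 measured miRNAs, of which 1 is a lesser form of miR-125, all fell, beside 25.3% of all tested miRNAs, with a median log2 change of -2.13 (all tested, 0.06). Without day 0 replicate 1, 3 of the 4 were called and the median was -1.03 (all tested, 0.23). miR-100-5p had 12283, 10524 and 16121 CPM at day 6, against 111147, 26700 and 35835 CPM at day 0, and fell by 2.16 (log2; SE 0.47, adjusted p = 0.00579). miR-125-5p had 15186, 9987 and 13861 CPM at day 6, against 107445, 24164 and 35486 CPM at day 0, and fell by 2.10 (SE 0.47, adjusted p = 0.00579). Day 0 replicate 1 was 3.55 times the mean of the other day 0 libraries for miR-100-5p and 3.60 times for miR-125-5p, and without it the changes shrank to -1.25 (SE 0.27, adjusted p = 0.00427) for miR-100-5p and -1.17 (SE 0.24, adjusted p = 0.00334) for miR-125-5p. let-7-5p had 11236, 10516 and 13134 CPM at day 6, against 28264, 17232 and 19102 CPM at day 0, and fell by 0.89 (SE 0.25, adjusted p = 0.0158; -0.62 without day 0 replicate 1). The ages did not overlap for any of these 3 miRNAs. The call of let-7-5p ended without day 6 replicate 2 (-0.78, adjusted p = 0.0609) and with the 6 libraries alone (-0.84), and that of the lesser form of miR-125 ended without day 0 replicate 1, at -0.89 in place of -2.58.

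miR-8 is known in flies for raising insulin signalling and growth from the fat body, and in a mosquito for the secretion of yolk proteins by the fat body. miR-8-3p was the most abundant miRNA by its mean at both ages and in 5 of the 6 libraries, the exception being day 0 replicate 1, with 739240, 610191 and 696568 CPM at day 6, against 69307, 332716 and 250948 CPM at day 0. The lowest day 6 library was well above the highest day 0 library. It rose by 1.65 (log2; SE 0.43, adjusted p = 0.0113), and by 1.25 without day 0 replicate 1 (SE 0.14, adjusted p = 0.000156). The other arm, miR-8-5p, had 25541, 26809 and 24037 CPM at day 6, against 10485, 11091 and 14391 CPM at day 0, and rose by 1.09 (SE 0.25, adjusted p = 0.00663; 1.02 without day 0 replicate 1). When the spread was estimated from the 6 libraries compared alone, neither arm was called, with log2 changes of 1.62 for miR-8-3p and 1.09 for miR-8-5p.

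As a share of all joined counts, miR-8-3p took 59.2%, 59.5% and 58.5% of the day 6 libraries, against 8.25%, 35.8% and 26.9% of the day 0 libraries. The widest 95% Wilson interval among these, in day 6 replicate 2, ran from 59.4% to 59.6%, and such intervals cover counting error only. The day 6 libraries thus lay within about a percentage point of each other and the day 0 libraries were spread widely. Shares sum to the whole, so a share depends on all other miRNAs of its library, and levels are therefore given with TMM normalisation. The 10 most abundant miRNAs held 87.8% to 88.5% of the day 6 counts and 80.7% to 82.3% of the day 0 counts, and 12 miRNAs made up 90% of each day 6 library, against 15 or 16 at day 0.

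A lesser form of miR-8-3p, counted separately because its profile differed, went the other way. It had 30.5, 36.7 and 31.3 CPM at day 6, against 2072, 113 and 97.5 CPM at day 0, and its log2 change of -4.53 (SE 1.06, adjusted p = 0.00663) became -1.66 (SE 0.39, adjusted p = 0.00520) without day 0 replicate 1. The sequence difference that separates the forms is not given in the table, so the forms are described by their counts alone.

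**Figure D2:**
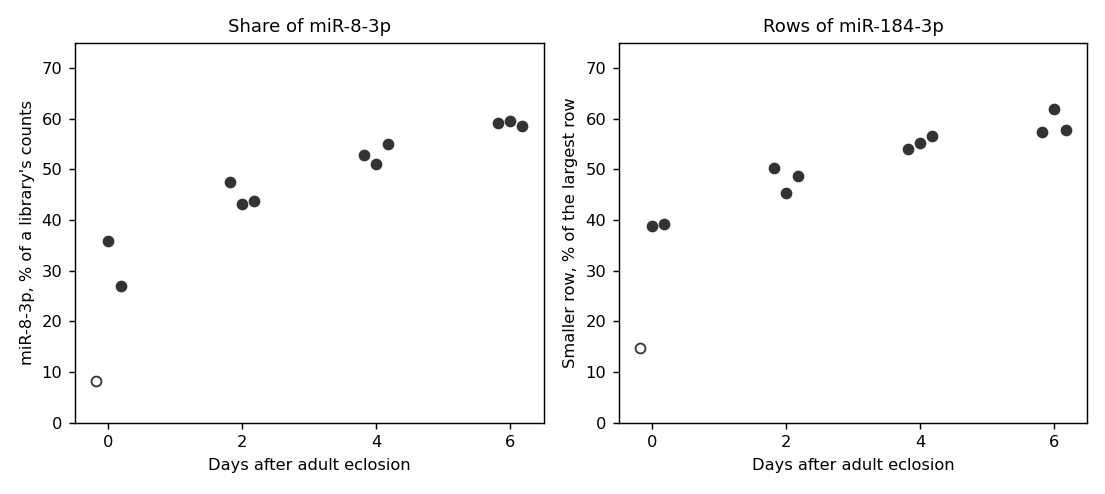
Left, the share of each library's joined counts taken by miR-8-3p. Right, the counts of a smaller row of miR-184-3p as a percent of its largest row. Both are drawn against days after eclosion, one point per library, with day 0 replicate 1 open. The miR-8-3p share of the day 6 libraries, 58.5% to 59.5%, lies above those of day 4 (51.0% to 55.0%), day 2 (43.1% to 47.4%) and day 0, and the miR-184-3p row ratio climbs in the same order of ages.

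miR-184, which flies need in the female germ line, was the most abundant of the miRNAs that fell. miR-184-3p had 36169, 31110.1 and 30874.5 CPM at day 6, against 126300, 54473 and 82114 CPM at day 0, with no overlap. It fell by 1.42 (log2; SE 0.29, adjusted p = 0.00372), with a change of -1.04 (SE 0.18, adjusted p = 0.00140) without day 0 replicate 1. This result depends on which row is counted. A smaller row of miR-184, named after a frog, was picked among the rows with 20% to 80% of the counts of the largest. It held 57.4%, 62.0% and 57.7% as many counts as the largest row at day 6. At day 0 it held 14.8%, 38.8% and 39.3%, again with no overlap. Counted by that row, the log2 change was -0.18 (SE 0.32, adjusted p = 0.661), and -0.30 (adjusted p = 0.124) without day 0 replicate 1, so the call ended. It ended too when the 6 libraries were fitted alone (-1.37, adjusted p = 0.0635). In all, 10 miRNAs had a row of at least 1000 counts and 20% to 80% of the largest, and 1 such row was taken for each. The row ratio did not overlap between the ages for 3, miR-184-3p, the lesser form of miR-8-3p and miR-34-5p, and was higher at day 6 in each. Without day 0 replicate 1 it did so for 4, miR-7-5p being added. The ratio of miR-7-5p was 54.8%, 62.7% and 58.3% at day 6, against 71.1%, 49.2% and 40.6% at day 0. For miR-34-5p the gap was narrow, with 61.5%, 56.1% and 56.1% at day 6, against 54.7%, 54.5% and 55.2% at day 0. The ratio of the lesser form of miR-8-3p rested on 42, 22 and 38 counts of its largest row at day 6. For the other called miRNA among the 10, miR-10-3p, the smaller row, under the locust's own name, gave a log2 change of -2.32 (SE 0.52, adjusted p = 0.00574).

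miR-278 governs energy balance in flies and is reported, with let-7, to target Kr-h1 in locusts. miR-278-3p had 4530.4, 2689 and 4092 CPM at day 6, against 38041, 11929.5 and 10632 CPM at day 0. Every day 6 library was below every day 0 library, and day 0 replicate 1 was 3.37 times as high as the mean of the other day 0 libraries. It fell by 2.42 (log2; SE 0.46, adjusted p = 0.00236), with a change of -1.56 (SE 0.23, adjusted p = 0.000373) without that library. Among the 6 measured miRNAs reported to target Kr-h1, 0 rose and 2 fell (miR-278-3p and let-7-5p), where 14.3% and 25.3% of all tested miRNAs did, with a median log2 change of -0.38 (-0.25 without day 0 replicate 1). The share that fell was close to that of all tested miRNAs. The others were miR-2-3p (0.13, and 0.48 without that library), miR-13a-3p (0.45, and 0.02), miR-13b-3p (0.95) and a lesser form of miR-278 (-1.18, and -0.51). Of these, miR-13b-3p was called as higher without day 0 replicate 1 (0.53, adjusted p = 0.0401). In that fit miR-2-3p was called higher only when counted by a smaller row (0.64, adjusted p = 0.0169).

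miR-33 lies within a gene of the SREBP family, regulators of lipid synthesis, in flies and mammals. miR-33-5p had 966, 916 and 65.9 CPM at day 6, against 73.6, 105 and 106 CPM at day 0. Day 6 replicates 1 and 2 were far above day 0, whereas day 6 replicate 3 was below all 3 day 0 libraries. The log2 change was 2.77 (SE 0.72, adjusted p = 0.0112), and 2.64 (adjusted p = 0.0251) without day 0 replicate 1, so the rise rests on 2 of the 3 day 6 libraries. The call ended with limma-voom (2.00) and with the 6 libraries alone (2.76). Among the 9 measured miRNAs tied to metabolism in flies, 3 rose (both arms of miR-8 and miR-33-5p) and 2 fell (miR-278-3p and the lesser form of miR-8-3p), where 14.3% of all tested miRNAs rose and 25.3% fell, so the lower share was close to that of all. miR-14-3p, which limits fat storage and cell death in flies, had 25399, 20451 and 79032 CPM at day 6, against 3279.9, 26817 and 30851 CPM at day 0, and the overlapping ages were not called apart (1.03, adjusted p = 0.251; 0.55 without day 0 replicate 1). miR-277-3p, a regulator of branched-chain amino acid breakdown in flies, had 658, 811 and 1039 CPM at day 6, against 305.3, 824 and 422 CPM at day 0 (0.69, adjusted p = 0.177; 0.44 without day 0 replicate 1). miR-305-5p was close to level, at 10051 ± 1359 CPM at day 6 and 10378 ± 1317 CPM at day 0 (SD, n = 3 each; log2 change -0.05, SE 0.24, and -0.04 without day 0 replicate 1).

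**Figure D3:**
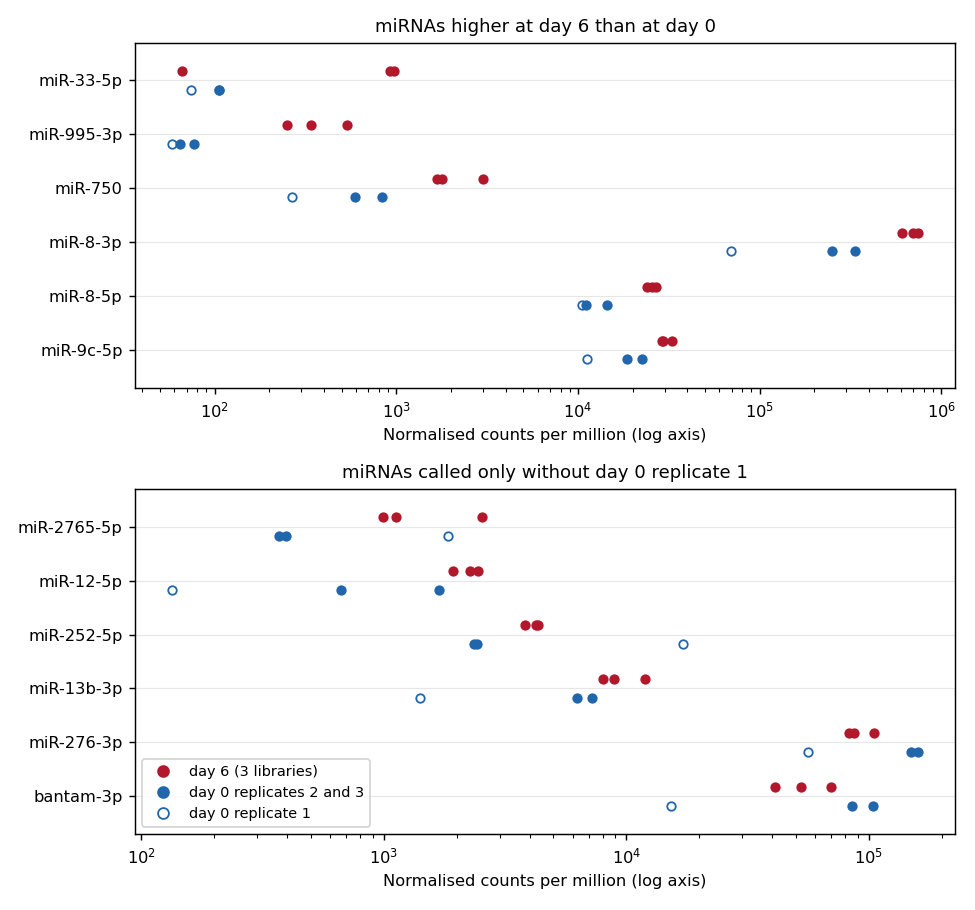
Normalised CPM (log axis) in each library, with day 6 in red above day 0 in blue and day 0 replicate 1 open; top, the 6 higher miRNAs; bottom, 6 abundant miRNAs called only when day 0 replicate 1 is left out. In the top panel day 6 lies right of day 0 except for day 6 replicate 3 of miR-33-5p, and in the bottom panel the open circle lies away from the other day 0 libraries.

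Apart from miR-8 and miR-33, 3 more miRNAs rose. miR-995-3p, of the miR-29 seed family, had 339, 249.9 and 534 CPM at day 6, against 58.5, 64.1 and 76.6 CPM at day 0. The ages were well separated and the day 0 libraries close to each other. It rose by 2.49 (log2; SE 0.36, adjusted p = 0.000392; 2.43 without day 0 replicate 1). miR-998-3p, of the same seed family, had 18.9, 16.7 and 16.5 CPM at day 6, against 210, 22.5 and 30.3 CPM at day 0. It fell by 2.28 (SE 0.76, adjusted p = 0.0321), which rested on day 0 replicate 1: the change was -0.58 (adjusted p = 0.208) without it. Its call also ended without day 6 replicate 1 (-2.32), 2 (-2.21) or 3 (-2.24).

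miR-750, which lies beside miR-1175 in other insects, had 1772, 1678 and 2988 CPM at day 6, against 266, 834 and 591 CPM at day 0. Day 6 was above day 0 in every library. It rose by 1.93 (SE 0.44, adjusted p = 0.00636; 1.61 without day 0 replicate 1), and was not called with the 6 libraries alone (1.92, adjusted p = 0.0635). miR-1175-3p had 63.9, 41.6 and 121 CPM at day 6, against 80.1, 45.0 and 45.7 CPM at day 0, and was not called (0.43, adjusted p = 0.474; 0.77 without day 0 replicate 1).

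miR-9c-5p, clustered with miR-79 and miR-306 in flies, had 32675, 29131 and 29358 CPM at day 6, against 11143, 22408 and 18585 CPM at day 0, without overlap. It rose by 0.81 (SE 0.27, adjusted p = 0.0321), and by 0.59 (SE 0.13, adjusted p = 0.00427) without day 0 replicate 1, the opposite direction to both arms of miR-9a. The call of miR-9c-5p ended without day 0 replicate 3 (0.86) and without day 6 replicate 1 (0.77), 2 (0.87) or 3 (0.83), as well as with total counts (0.46). miR-79-3p had 1473, 1293 and 2002 CPM at day 6, against 165, 932 and 1164 CPM at day 0, without overlap, and was not called (1.07, adjusted p = 0.126; 0.62, adjusted p = 0.0650, without day 0 replicate 1). miR-306-5p overlapped between the ages, at 21543 ± 6054 CPM at day 6 and 23044 ± 2643 CPM at day 0 (SD, n = 3 each). Of the 6 measured miRNAs numbered miR-9, miR-79 or miR-306, 1 rose (miR-9c-5p) and 2 fell (both arms of miR-9a), beside 14.3% and 25.3% of all tested miRNAs. This list goes by number alone, so it is not a count of miRNAs from a single cluster.

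The remaining lower miRNAs were of low to moderate abundance. miR-92a-3p, of the miR-92 family, had 7.27, 15.0 and 20.6 CPM at day 6, against 342, 70.0 and 86.0 CPM at day 0, from 10, 9 and 25 counts against 158, 165 and 173. The ages did not overlap. It fell by 3.52 (log2; SE 0.67, adjusted p = 0.00236), with a change of -2.44 (SE 0.44, adjusted p = 0.00146) without day 0 replicate 1. miR-193-3p had 7.99, 3.33 and 3.30 CPM at day 6, against 126, 14.0 and 17.9 CPM at day 0, and fell by 3.28 (SE 0.87, adjusted p = 0.0120; -1.60 without day 0 replicate 1). Its call ended without day 6 replicate 2 (-3.06) or 3 (-3.03), and with the 6 libraries alone (-3.18). miR-2796-3p had 84.3, 60.0 and 36.3 CPM at day 6, against 1502, 107 and 113 CPM at day 0, and fell by 3.24 (SE 0.92, adjusted p = 0.0160), but its change was -0.84 (adjusted p = 0.127) without day 0 replicate 1. That of miR-2796-3p ended also without day 6 replicate 2 (-3.18) or 3 (-2.98). Both miR-193-3p and miR-2796-3p had all day 6 libraries below all day 0 libraries, and day 0 replicate 1 far above the rest.

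miR-276b-3p had 6.54, 4.998 and 4.95 CPM at day 6, against 8.66, 32.3 and 35.8 CPM at day 0, and fell by 2.24 (SE 0.57, adjusted p = 0.0108; -2.57 without day 0 replicate 1). It is a near copy of the far more abundant miR-276-3p, so its counts, at most 9 at day 6, are uncertain, and it was not called with the 6 libraries alone (-2.27). miR-282-5p had 30.5, 11.7 and 5.77 CPM at day 6, against 25.98, 52.2 and 68.6 CPM at day 0, with day 6 replicate 1 above day 0 replicate 1. It fell by 1.61 (SE 0.59, adjusted p = 0.0460; -1.85 without day 0 replicate 1). The call of miR-282-5p ended without day 0 replicate 2 (-1.57) or 3 (-1.29) and without day 6 replicate 2 (-1.40) or 3 (-1.19), and the change was -2.54 without day 6 replicate 1.

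miR-1, the most muscle-bound of animal miRNAs, is a marker of attached muscle in a fat body dissection. miR-1-3p had 66.1, 435 and 309 CPM at day 6, against 179.7, 3242 and 1737 CPM at day 0. The day 0 libraries differed widely, and replicate 1 of them lay within the day 6 range. It fell by 2.68 (SE 0.90, adjusted p = 0.0321; -3.20 without day 0 replicate 1). The call ended without day 0 replicate 2 (-1.84) or 3 (-2.67) and without day 6 replicate 1 (-2.20), 2 (-3.17) or 3 (-2.79). miR-133-3p, the other muscle miRNA measured, had 58.9, 268 and 94.0 CPM at day 6, against 182, 34.8 and 29.3 CPM at day 0, and was not called (0.81, adjusted p = 0.480). Without day 0 replicate 1 its log2 change was 2.13 (adjusted p = 0.0889), with every day 6 library above the other day 0 libraries, the opposite direction to miR-1-3p.

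No miRNA defines fat body itself, so the tissue label has no positive marker here and markers of other cell types were summed instead. Each family entered a sum by its most abundant row alone. The muscle markers, with counts for miR-1 and miR-133 and miR-206 at 0, summed to 125, 703 and 403 CPM at day 6, against 362, 3276 and 1766 CPM at day 0. The neuronal markers, all 5 families of which had counts, summed to 16.0, 108 and 42.9 CPM at day 6, against 67.1, 49.7 and 15.9 CPM at day 0. The gut markers, with miR-281 present and miR-958 at 0, summed to 45.8, 382 and 195 CPM at day 6, against 123, 983 and 60.7 CPM at day 0. The muscle sum was highest in day 0 replicates 2 and 3 through miR-1 alone, since miR-133 was lowest in those libraries. Neither the neuronal nor the gut sum separated the ages. Of the 8 ovary and embryo families, 7 had 0 counts in all 6 libraries and miR-989 had 113 counts in day 0 replicate 1 alone; a count of 0 allows for up to 3 counts in a library. The epidermal and sensory list, to which miR-263 and miR-9 belong, summed to 33456, 30149 and 30242 CPM at day 6. At day 0 it summed to 13670, 24600 and 21289 CPM, and most of each sum was miR-9c-5p. The sum leaves out miR-263b-5p and both arms of miR-9a, which fell, so it does not give the direction of the whole list. Of these, miR-9a-5p had 3814, 1821 and 1680 CPM at day 6, against 1927, 11205 and 12426 CPM at day 0. In that list 1 of 9 measured miRNAs rose and 5 fell, one of them a lesser form of miR-263b-5p, beside 14.3% and 25.3% of all tested. The part of other tissues in the changes of miR-1, miR-263 and miR-9a was not tested, and in whole tissue fewer cells of a type cannot be told apart from less RNA per cell.

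**Figure D4:**
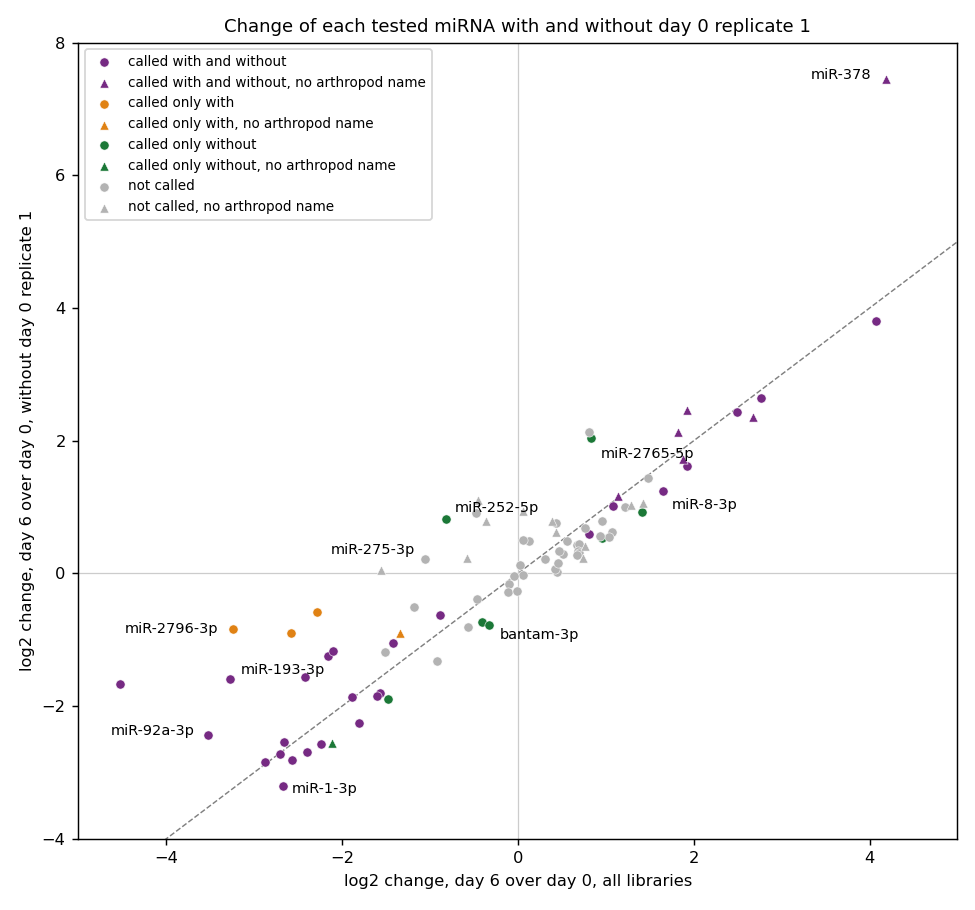
Log2 change at day 6 over day 0 of each tested miRNA with all libraries (horizontal) and without day 0 replicate 1 (vertical), with the dashed line marking equal values and triangles marking miRNAs without an arthropod name. Most points called both times lie near the line in the lower left and upper right, miR-2796-3p lies far above it among the calls made only with that library, and miR-252-5p and miR-275-3p cross the zero line of the vertical axis.

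Leaving out day 0 replicate 1 ended 4 calls and added 8. The calls made only with it were miR-2796-3p, miR-998-3p, the lesser form of miR-125 and miR-99b-5p, all lower at day 6. Among those made only without it, miR-252-5p changed direction. It had 3822, 4308 and 4256 CPM at day 6, against 17121, 2349 and 2409 CPM at day 0, so day 0 replicate 1 was above every day 6 library and the other day 0 libraries were below all of them. Its log2 change was -0.82 (SE 0.61, adjusted p = 0.307) with all libraries and 0.81 (SE 0.17, adjusted p = 0.00373) without that library.

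miR-2765-5p had 2529, 1118 and 994 CPM at day 6, against 1845, 396 and 369 CPM at day 0, with a log2 change of 0.84 (adjusted p = 0.305) and, without day 0 replicate 1, 2.04 (SE 0.47, adjusted p = 0.00470). miR-12-5p had 2263, 2449 and 1936 CPM at day 6, against 134, 1692 and 668 CPM at day 0, with a change of 1.41 (adjusted p = 0.0852) and, without that library, 0.93 (SE 0.32, adjusted p = 0.0389). In miR-12-5p day 6 exceeded day 0 in every library either way. miR-13b-3p, at 8879.9, 8029.9 and 11936 CPM at day 6, against 1409, 7198 and 6279 CPM at day 0, likewise did not overlap.

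miR-276-3p and bantam-3p, the most abundant miRNAs after miR-8-3p by the mean of the 6 libraries, were called lower at day 6 only without day 0 replicate 1, and both had levels in that library under the day 6 range. miR-276-3p, reported in locusts to synchronise egg hatching, had 104986, 82612 and 86953 CPM at day 6, against 56283, 149215 and 158724 CPM at day 0. Its log2 change was -0.41 (adjusted p = 0.365), and -0.73 (SE 0.15, adjusted p = 0.00324) without day 0 replicate 1. bantam-3p, which promotes growth and blocks cell death in flies, had 69697, 52284 and 40949.5 CPM at day 6, against 15302, 84772 and 104409 CPM at day 0. Its log2 change was -0.33 (adjusted p = 0.606), and -0.78 (SE 0.21, adjusted p = 0.0118) without day 0 replicate 1. The lesser form of bantam-3p was lower (-1.89) and miR-1b, with no arthropod name, was lower (-2.56) in that fit too.

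miR-275-3p, needed for egg development in mosquitoes, had 21566.5, 19612 and 24969 CPM at day 6, against 99545, 19349.6 and 19222 CPM at day 0. Apart from day 0 replicate 1 the ages differed little, with day 6 slightly above day 0. The log2 change was -1.06 (SE 0.52, adjusted p = 0.126), and 0.21 (SE 0.14, adjusted p = 0.230) without that library. Here too the row counted matters. By a smaller row, miR-275-3p was called higher without day 0 replicate 1 (0.41, SE 0.12, adjusted p = 0.0188), and was not called with it (-0.46, adjusted p = 0.451). Among the 5 measured miRNAs of the list on female reproduction in mosquitoes, 2 rose and 1 fell, all of them forms of miR-8, beside 14.3% and 25.3% of all tested.

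The miR-2, miR-13 and miR-71 cluster, reported to act on Notch in locusts, had 0 of 5 measured miRNAs called, beside 39.6% of all tested. Its median log2 change of 0.42 (all tested, 0.06) became 0.08 with total counts (all tested, -0.31). In the fit without day 0 replicate 1, 1 was called as higher (miR-13b-3p), beside 18.5% higher and 25% lower among all tested. Counted by a smaller row, miR-2-3p was called higher without that library too (0.64, adjusted p = 0.0169), and was not called with it (0.07). The miR-277, miR-34 and miR-317 cluster had 0 of 3 called in either fit, beside 39.6% of all tested, and 43.5% without day 0 replicate 1. Its median of 0.06 (all tested, 0.06) was 0.50 without day 0 replicate 1 (all tested, 0.23). With total counts it was -0.33 (all tested, -0.31). In the same cluster miR-34-5p had 2198, 1779 and 4700.3 CPM at day 6, against 8913, 1292 and 1843 CPM at day 0. The ages overlapped with and without day 0 replicate 1, and the log2 change was -0.47 (adjusted p = 0.543) with it and 0.90 (adjusted p = 0.0711) without it. By its smaller row, miR-34-5p was called higher without that library (1.11, adjusted p = 0.0250), and was not called with it (-0.25). Of 13 measured miRNAs reported to respond to insect hormones, 2 rose and 5 fell, where 14.3% and 25.3% of all tested did (3 and 4 without day 0 replicate 1, where 18.5% and 25% did). The share that rose was close to that of all tested miRNAs. Those called were the arms of miR-8, higher, and the lesser form of miR-8-3p with the 4 let-7 complex miRNAs, the lesser form of miR-125 among them, lower. Of 8 in growth and survival, 0 rose and 1 fell (miR-278-3p), beside 14.3% and 25.3% of all tested, and 1 rose and 3 fell without day 0 replicate 1, beside 18.5% and 25%.

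Both arms could be measured for 8 hairpins. Both were higher for miR-8 and both lower for miR-10 and miR-9a. For the other 5 (miR-71, miR-190, miR-276, miR-281 and miR-307) neither arm was called, and in 3 of them, miR-71, miR-276 and miR-307, the arms had log2 changes of opposite sign. In miR-276 the less abundant arm, miR-276-5p, had 1679, 1534 and 177 CPM at day 6, against 405, 1112 and 954 CPM at day 0. Day 6 replicate 3 was again the low one, as for miR-33-5p.

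**Figure D5:**
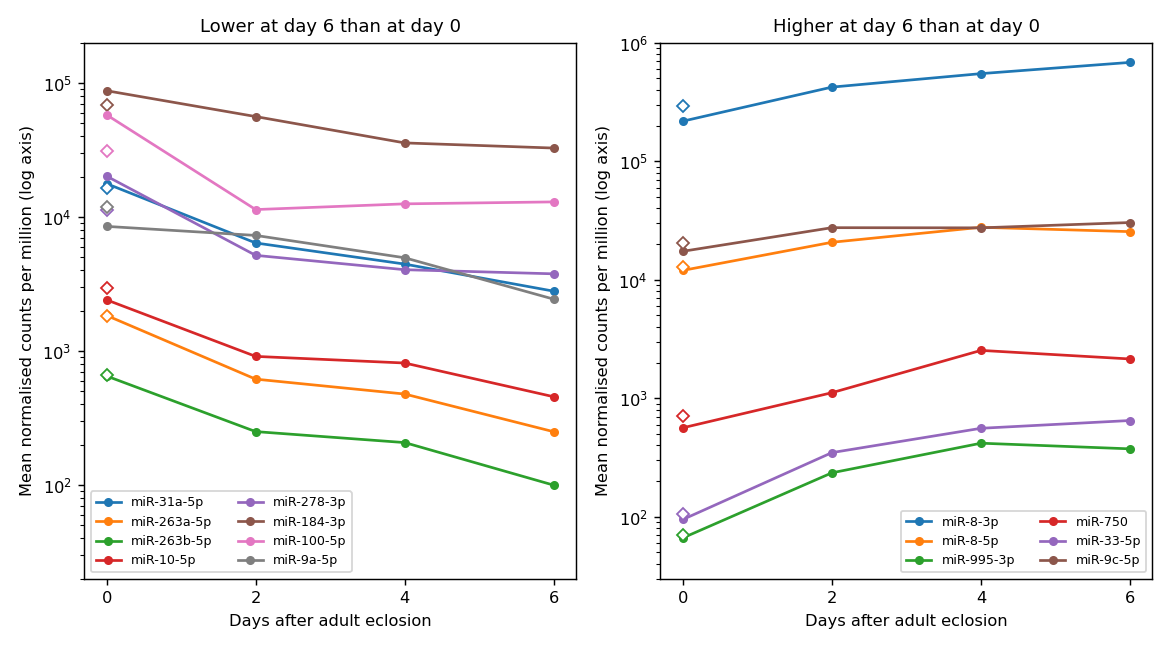
Mean normalised CPM (log axis, 3 libraries per age) at 0, 2, 4 and 6 days after eclosion for 8 lower miRNAs (left) and the 6 higher miRNAs (right), with open diamonds for the day 0 mean without replicate 1. miR-31a-5p, miR-263 and miR-10-5p decline at each age, miR-100-5p is level after day 2, and on the right miR-8-3p climbs to day 6 while miR-750, miR-995-3p and miR-8-5p have their highest mean at day 4.

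The ages between day 0 and day 6 place these changes in time. The mean at day 2 lay between those of day 6 and day 0 for the 6 higher and for 17 of the 19 lower miRNAs, and the mean at day 4 did so for 3 of the 6 and 17 of the 19. Means moved in a single direction over the 4 ages for 2 of the higher and 13 of the lower miRNAs, and for 2 and 14 without day 0 replicate 1. miR-31a-5p, for example, averaged 17757, 6409, 4457 and 2798 CPM at days 0, 2, 4 and 6. miR-263a-5p averaged 1844, 618, 478 and 250.1 CPM. miR-8-3p averaged 217657, 421885, 548225 and 682000 CPM. Without replicate 1 the day 0 means of miR-31a-5p, miR-263a-5p and miR-8-3p were 16539, 1836 and 291832 CPM. By contrast, the highest mean was at day 4 for miR-750 and miR-995-3p: miR-750 averaged 564, 1115, 2535 and 2146 CPM and miR-995-3p 66.4, 235, 418 and 374 CPM. miR-100-5p averaged 57894, 11375, 12545 and 12976 CPM, so that its day 2 mean was already slightly below that of day 6. Without replicate 1 its day 0 mean was 31268 CPM. miR-9a-5p averaged 8519, 7295, 4967 and 2438 CPM, with the larger part of its decline after day 2. Its day 0 mean was 11815 CPM without replicate 1, and in CPM the decline was then split more evenly around day 2. The comparisons of the later ages with day 0 share the day 0 libraries, replicate 1 included.

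Lastly, 7 of the 36 called miRNAs had no arthropod name, 6 of them higher at day 6 and 1 lower, and what they are in the locust is not given by the table. Among the higher ones was miR-378, with 40, 62 and 44 counts at day 6, against 7, 0 and 1 at day 0. Its name is one of 8 families listed for vertebrate blood and liver, 7 of them with counts and miR-144 at 0. They summed to 38.5, 142 and 48.6 CPM at day 6, against 110, 2.97 and 1.99 CPM at day 0. Most of each day 6 sum was miR-378 itself, at 29.1, 103 and 36.3 CPM. With day 0 replicate 1 left out, every day 6 sum was above every day 0 sum. miR-21, miR-122, miR-223 and miR-142 were highest in day 0 replicate 1, at 49.8, 19.5, 15.2 and 6.49 CPM. By contrast, miR-486 was highest in day 6 replicate 2, and miR-451 had 1 count, in day 6 replicate 1. The part of material from another species in these counts was not tested. A form of miR-1-3p seen mostly under vertebrate names had 25, 50 and 48 counts at day 6, against 0, 6 and 8 at day 0. It rose (log2 change 4.07, SE 0.94, adjusted p = 0.00663; 3.804 without day 0 replicate 1), while the more abundant form of miR-1-3p, joined under arthropod names, fell. Of all 91 tested miRNAs, 55 were not called in either direction, and 42 of those had a log2 change within 1 of zero. The median coefficient of variation between the libraries of an age was 30.1% at day 6 and 58.3% at day 0, over 90 miRNAs. The day 0 value includes day 0 replicate 1, and it was not computed without that library.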

How the data were processed

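The authors deposited raw counts per mature miRNA name, 26711 names under 115 species prefixes, for 12 libraries, and each column was matched to its sample through the label that carries its name. Per the labels' protocols, TRIzol was used for extraction and Illumina's usual protocol for the libraries, with the aligner, mismatches and miRNA release not given in the sources used here. Values of paralogues that share reads are uncertain.

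Names with at least 120 counts (1513 rows) were joined: those of 1 miRNA number within 25% plus 5 counts in every library, and those with different numbers within 5% plus 3 counts, giving 155 profiles. A profile in constant share (within 1.5-fold or 2.5 counting SDs, 1 library allowed outside) to a larger group of the same number, letter and arm was then joined to it. Each of the 103 groups carries an arthropod name where it has one (84 groups) and the counts of its largest row.

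All 12 libraries were fitted together, with age as the factor, by glmQLFit and glmQLFTest in edgeR 4.0.16 (R 4.3.3, limma 3.58.1), after filterByExpr (minimum count 10) and TMM scaling, and p-values were adjusted by Benjamini-Hochberg over all tested groups. The standard error is the log2 change divided by the square root of F. Joining used Python 3.11.15, pandas 2.3.3 and NumPy 2.4.6, and figures matplotlib 3.10.9.

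Named are called groups with an arthropod name and at least 10 CPM on average over the 6 libraries, counted by their most abundant form, together with the 10 most abundant groups, list members and groups called only with or only without day 0 replicate 1. Lists, members and tests were chosen with earlier results of these data known. Alternatives were DESeq2 1.42.0, limma-voom, RLE factors, scaling by total counts, no filter, a replicate block, the 6 libraries compared alone, each of them left out, other joinings, the top miRNA left out and, added after seeing the data, other rows counted and groups found mostly in day 0 replicate 1 left out.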

Additional observations from a re-analysis of the deposited data

How the results depend on the processing

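Over 23 alternatives, the 25 named log2 changes kept their direction in every case, and 481 of 574 values kept their side of the threshold, while 93 were no longer called. The number of higher miRNAs, 13 as reported, was 7 with total counts, 20 with DESeq2, 7 with a replicate block, 2 when only the 6 libraries compared were fitted and 117 when all rows were tested as they stand. The number of lower miRNAs, 23 as reported, was 10 with the 6 libraries alone and 309 with all rows; rows that repeat the same reads inflate the counts with all rows. Leaving out each of the 6 libraries in turn gave 7 to 17 higher and 14 to 23 lower. The 6-library fit, with fewer samples to estimate the spread, ended 15 of the 25 named calls, joining by name alone ended 12, all rows 7 and leaving out day 6 replicate 2 or 3 ended 8 or 7; RLE factors, arthropod names alone and counts of the largest arthropod row ended none of the 25. Joining by name alone also ended the call of miR-31a-5p (-2.24); the cause was not tested. Without day 0 replicate 1, total counts gave 11 higher and 28 lower, and the other 5 libraries alone 9 and 21.

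Replicate numbers are not stated to pair libraries across ages. The numbers follow the sample titles, and the columns of replicate 1 carry different numbers at day 0 and day 6. Deviations of same-numbered libraries correlated at -0.04, 0.17 and -0.09, which for replicate 1 cannot decide on a pairing by column. The numbers are treated as names, and the replicate block gave 7 higher and 19 lower.

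Depth limits the least abundant miRNAs: miR-276b-3p rests on 9, 3 and 6 counts at day 6 and miR-193-3p on 11, 2 and 4, and the shallowest libraries were day 0 replicate 1 and day 6 replicate 2.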

Other observations

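Day 6 replicate 3 differed from the other day 6 libraries for several miRNAs. Besides miR-33-5p (65.9 CPM, against 966 and 916 in replicates 1 and 2) and miR-276-5p (177, against 1679 and 1534), miR-14-3p was higher in it, at 79032 CPM against 25399 and 20451, and so were miR-34-5p, at 4700.3 CPM against 2198 and 1779, and miR-965-3p, at 376 CPM against 124 and 119.9. It was the highest of the 12 libraries for 12 of the 91 tested miRNAs and the lowest for 15. With 3 libraries per age none of these values was tested as an outlier.

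Some miRNAs that were not called had ages that did not overlap, and miR-252a-3p among them was close to the threshold. miR-252a-3p had 81.4, 76.6 and 81.6 CPM at day 6, against 28.1, 52.6 and 41.3 CPM at day 0 (log2 change 0.95, adjusted p = 0.0505; 0.79, adjusted p = 0.0505, without day 0 replicate 1). miR-190-5p, at 55.2, 90.0 and 56.9 CPM at day 6, against 39.0, 51.4 and 45.2 CPM at day 0, was separated by a narrow gap (0.56, adjusted p = 0.272; 0.49 without day 0 replicate 1).

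miR-315-5p had similar means at day 6 and day 0, 63.6 and 62.8 CPM. Its day 2 mean of 245 CPM was carried by replicate 3, with 128, 67.9 and 539 CPM in the 3 libraries, and its day 4 mean was 19.9 CPM.

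Within the let-7 family, names without an arthropod member gave no call: let-7c-5p had 40.0, 83.3 and 33.8 CPM at day 6, against 147, 36.9 and 52.2 CPM at day 0, and let-7f-5p had 6.54, 15.0 and 9.07 CPM at day 6, against 75.8, 6.79 and 12.4 CPM at day 0. In both, day 0 replicate 1 was the highest library of the 6.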
